A study of Mus musculus with 6 samples.

Results

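The tricarboxylic acid (TCA) cycle was examined through 9 named genes, Cs, Idh3a, Idh2, Ogdh, Dlst, Suclg1, Sucla2, Fh1 and Mdh2, each located by its mouse symbol among the 54232 genes listed for every sample. All 9 were among the 14133 genes with enough counts to be tested. RNA-seq was performed on the heart ventricle of 6 wild-type (WT) C57BL/6J mice fed a western diet (WD, rich in fat and sucrose) for 15 weeks. The 3 WD + Tributyrin mice were then needle-fed Tributyrin, a triglyceride that releases the short chain fatty acid butyrate, at 5 g/kg over 3 weeks, with pairs of treatment days separated by pairs of days off. The 3 WD + Vehicle mice received vehicle on the same schedule, and their labels name it PBS. The labels give neither the age nor the sex of each mouse, and no lean or untreated hearts were analysed here. The comparison asks how the cardiac transcriptome of obese mice differs with Tributyrin.

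The TCA cycle runs in the mitochondrial matrix, where it oxidises the acetyl group of acetyl-CoA to carbon dioxide and passes the electrons to NADH and to ubiquinone for the respiratory chain. Fatty acids, glucose, ketone bodies and butyrate all enter it as acetyl-CoA, and a working heart keeps its enzymes at a high level because most of its ATP is made by oxidation. All 9 genes are encoded in the nucleus, and their proteins are imported into mitochondria. Transcript levels were measured, not enzyme activity or flux.

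None of the 9 transcripts passed the test for a difference between WD + Tributyrin and WD + Vehicle. Of the 9, 8 had a higher fitted mean and 1, Ogdh, a lower fitted mean with Tributyrin, with a median log2 fold change of 0.06, a count that fell to 4 of 9 when library size alone was used for scaling. The 95% intervals of all 9 fold changes lay between 0.865 and 1.27. The number past a false discovery rate (FDR) of 10% was 0 of 9 beside 0% of all genes tested (quasi-likelihood test of edgeR, p-values adjusted by Benjamini-Hochberg), and the adjusted p was 0.999 for each of the 9. At an unadjusted p under 0.05 the number was again 0 of 9 in either direction, beside 4.25% of all genes tested, 1.97% on the higher side and 2.28% on the lower side. DESeq2 and limma-voom each also called 0 of 9. No member had normalized counts that separated the 3 mice of one group from the 3 of the other, beside 8.92% of all genes tested that did, made up of 4.27% higher and 4.65% lower with Tributyrin.

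The libraries held 20369746 to 32734485 counts, and each member had between 8480 and 101887 counts in every library, so that counting error was at most 1.09% of a value and was smaller than the spread between mice. Male-specific Ddx3y was counted 1571 to 2559 times and Xist 0 to 6 times in the 6 libraries, the pattern of male mice in each. Ventricular cardiomyocyte markers were all detected, with 10 of 10 above 0 counts and a summed level of 72040 to 74180 CPM (counts scaled to a fixed library total) with vehicle and 67700 to 72780 with Tributyrin. The 6 atrial markers summed to 55.9 to 182 CPM with vehicle and 30.4 to 64.3 with Tributyrin, with none at 0 counts. Of the markers tested, 0 of 5 atrial, 7 of 10 ventricular and 1 of 6 fibroblast genes were higher with Tributyrin. So were 0 of 5 macrophage, 3 of 5 endothelial, 4 of 4 smooth muscle and 12 of 12 mitochondrially encoded genes, beside 49.6% of all genes tested. The 6 fibroblast markers, likewise all detected, summed to 818 to 970 CPM and 711 to 924 CPM. Mitochondrially encoded transcripts took 23.6 to 26.5% of counts with vehicle and 25.9 to 28.8% with Tributyrin, and 17 of the 37 mitochondrial genes were at 0. The part of these differences in the values below was not tested, and in bulk tissue fewer cells of a type and less RNA per cell cannot be told apart.

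Promoter sequences are shown first for 3 members chosen for their profiles over the 6 mice, Sucla2 and Mdh2 as the closest pair and Ogdh as the member farthest from the others. The RefSeq table (GRCm38.p6) held 13 promoter windows for 8 of the 9 members, and Idh3a was not matched. Each window runs from 250 bases before an annotated start to 50 bases after it, on the strand of the gene. Capitals mark matches on either strand to GGGCGG (the GC box, bound by SP1 factors), CCAAT (the CCAAT box), TATAAA (the TATA box), TGCGCATGC (an element of NRF1, a regulator of nuclear genes for mitochondrial proteins) or TNAAGGTCA (an element of oestrogen-related receptors, which regulate oxidative metabolism in the heart).
Mdh2, chr5:135778399-135778698, plus strand: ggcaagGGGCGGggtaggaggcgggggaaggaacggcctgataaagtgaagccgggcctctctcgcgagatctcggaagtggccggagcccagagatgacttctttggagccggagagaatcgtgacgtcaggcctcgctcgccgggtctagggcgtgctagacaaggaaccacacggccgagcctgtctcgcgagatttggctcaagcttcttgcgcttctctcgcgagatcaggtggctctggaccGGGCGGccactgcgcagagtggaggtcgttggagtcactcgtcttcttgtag
Sucla2, chr14:73552536-73552835, plus strand: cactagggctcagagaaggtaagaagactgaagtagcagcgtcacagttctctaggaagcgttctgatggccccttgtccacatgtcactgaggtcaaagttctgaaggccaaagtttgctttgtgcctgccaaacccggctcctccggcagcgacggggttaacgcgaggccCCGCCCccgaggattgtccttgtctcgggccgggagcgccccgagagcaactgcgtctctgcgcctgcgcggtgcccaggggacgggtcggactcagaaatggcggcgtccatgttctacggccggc
Ogdh, chr11:6291347-6291646, plus strand: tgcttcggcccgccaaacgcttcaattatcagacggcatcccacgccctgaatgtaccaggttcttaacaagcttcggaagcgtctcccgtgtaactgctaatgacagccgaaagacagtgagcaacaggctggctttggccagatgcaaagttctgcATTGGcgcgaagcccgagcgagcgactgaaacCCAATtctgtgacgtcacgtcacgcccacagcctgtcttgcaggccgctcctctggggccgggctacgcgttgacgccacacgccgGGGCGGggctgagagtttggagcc
Ogdh, chr11:6292308-6292607, plus strand: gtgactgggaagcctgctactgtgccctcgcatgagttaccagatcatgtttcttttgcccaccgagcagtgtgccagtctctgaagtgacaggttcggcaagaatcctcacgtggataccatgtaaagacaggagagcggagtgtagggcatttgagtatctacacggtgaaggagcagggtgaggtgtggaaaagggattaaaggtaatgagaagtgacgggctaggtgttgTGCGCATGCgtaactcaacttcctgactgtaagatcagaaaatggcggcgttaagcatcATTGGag
The Mdh2 window held 2 GC boxes and the Sucla2 window 1. The upstream Ogdh window held 1 GC box and 2 CCAAT boxes, and the downstream one held a CCAAT box and an NRF1 element that began 16 bases before the annotated start. Over all windows of the members, 10 of 13 held a GC box, beside 35.7% of all 32851 mouse promoters in the table, and 9 of 13 held a CCAAT box, beside 37.4%. Of the 13, 6 windows belonged to Ogdh, some of them overlapping, so the windows are not independent. Counted by gene, a GC box occurred in 7 of the 8 members, beside 38.2% of all genes in the table, and a CCAAT box in 4 of the 8, beside 41.1%. The NRF1 element occurred in 2 of 13, beside 1.52% of all promoters. Both were overlapping Ogdh windows around neighbouring starts that held the same site. Counted by gene, it occurred in 1 of the 8 members, beside 1.72% of all genes in the table. The oestrogen-related receptor element occurred in 0 of 13, beside 1.28%, and the TATA box in 0 of 13, beside 13.6%. The share of G and C bases was 49.3 to 72.3% in the windows of the members, beside a median of 52.7% over all promoters. Its part in the counts of matches was not tested, and the motifs were chosen after the promoters had been read. These are matches of letters in a fixed window and not measured binding.

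Entry of acetyl groups into the cycle is catalysed by citrate synthase, encoded by Cs (ENSMUSG00000005683, mm10 chromosome 10, 128337734 to 128362479, plus strand), which joins acetyl-CoA to oxaloacetate. Cs had 40958, 40104 and 42131 normalized counts (each library's counts over its DESeq2 size factor) in vehicle mice 1, 2 and 3, and 42097, 41620 and 44350 in Tributyrin mice 1, 2 and 3. Tributyrin mouse 3 was the highest of the 6, and the other Tributyrin mice lay inside the vehicle range. The means were 41064 ± 1018 (SD, n = 3) and 42689 ± 1458 (SD, n = 3), a difference of 3.96% within the range that the mice of a group spanned (exact permutation test, two-sided, p = 0.3). The log2 fold change was 0.06 with a 95% interval of -0.09 to 0.20.

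Isocitrate is oxidised to 2-oxoglutarate by the NAD-dependent enzyme, whose catalytic subunit is encoded by Idh3a (ENSMUSG00000032279, chromosome 9, 54586334 to 54604661, plus strand), and by the NADP-dependent mitochondrial enzyme encoded by Idh2 (ENSMUSG00000030541, chromosome 7, 80094846 to 80115392, minus strand). Normalized counts of Idh3a were 18716, 17717 and 18070 in the 3 vehicle mice and 19577, 17431 and 20716 in the 3 Tributyrin mice. Tributyrin mice 1 and 3 were above every vehicle mouse, and Tributyrin mouse 2 was the lowest of the 6. The means were 18168 ± 506 and 19242 ± 1668 (SD, n = 3 each; exact permutation p = 0.4), and the log2 fold change was 0.08 with an interval of -0.09 to 0.25. For Idh2 the normalized counts were 52879, 45241 and 48520 with vehicle and 54234, 48851 and 55975 with Tributyrin. Here the vehicle mice also differed from each other, vehicle mouse 2 being the lowest of all, and Tributyrin mouse 2 lay among the vehicle mice. The Idh2 means of 48880 ± 3831 and 53020 ± 3714 (SD, n = 3 each) differed by 8.47% (exact permutation p = 0.2), with a log2 fold change of 0.12 and an interval of -0.07 to 0.30. Within each heart, Idh2 had 34.2 times the normalized counts of its cytosolic counterpart Idh1 with vehicle and 37.3 times with Tributyrin, ratios that are not corrected for transcript length (exact permutation p = 0.3).

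The 2-oxoglutarate dehydrogenase complex, a rate-controlling step that is sensitive to calcium, was represented by Ogdh (ENSMUSG00000020456, chromosome 11, 6291633 to 6356642, plus strand), which decarboxylates 2-oxoglutarate, and by Dlst (ENSMUSG00000004789, chromosome 12, 85110833 to 85134845, plus strand), whose product forms the core of the complex and transfers the succinyl group to CoA. Ogdh had 76860, 79007 and 79703 normalized counts in the vehicle mice and 72037, 82275 and 74079 in the Tributyrin mice. Among the Tributyrin mice, mouse 2 was the highest of all 6, where it was the lowest of its group for every other member, and mice 1 and 3 were below every vehicle mouse. The Ogdh means were 78523 ± 1482 and 76130 ± 5419 (SD, n = 3 each; exact permutation p = 0.5), and the log2 fold change was -0.04 with an interval of -0.21 to 0.12. Dlst had 18191, 18316 and 17862 normalized counts with vehicle and 18387, 16944 and 19948 with Tributyrin. Tributyrin mouse 3 was the highest and Tributyrin mouse 2 the lowest of the 6, on either side of a narrow vehicle range. The Dlst means were 18123 ± 235 and 18426 ± 1503 (SD, n = 3 each; exact permutation p = 0.7), with a log2 fold change of 0.02, an interval of -0.14 to 0.19 and a value of -0.03 without Tributyrin mouse 3.

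Succinyl-CoA is converted to succinate by a ligase that pairs the shared alpha subunit, encoded by Suclg1 (ENSMUSG00000052738, chromosome 6, 73248382 to 73276911, plus strand), with either an ADP-forming or a GDP-forming beta subunit, and Sucla2 (ENSMUSG00000022110, chromosome 14, 73525319 to 73596142, plus strand) encodes the beta subunit that makes ATP. Suclg1 had 10673, 10319 and 10535 normalized counts in the vehicle mice and 11839, 10576 and 12903 in the Tributyrin mice. Tributyrin mice 1 and 3 lay above every vehicle mouse and Tributyrin mouse 2 lay between the highest and the middle vehicle mouse. The means were 10509 ± 178 and 11773 ± 1165 (SD, n = 3 each), and the difference of 12.0% was the largest of the 9 members in relative terms and larger than either SD, but the groups overlapped (exact permutation p = 0.2). The log2 fold change of Suclg1 was 0.16 with an interval of -0.01 to 0.34, and its unadjusted p of 0.066 ranked 814 among all genes tested in edgeR's quasi-likelihood test. Sucla2 had 17259, 16390 and 16351 normalized counts with vehicle and 18397, 16207 and 18525 with Tributyrin. Again Tributyrin mouse 2 was the lowest of all, and Tributyrin mice 1 and 3 were above the vehicle mice. The Sucla2 means were 16667 ± 514 and 17710 ± 1303 (SD, n = 3 each; exact permutation p = 0.4), with a log2 fold change of 0.09 and an interval of -0.08 to 0.25.

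Fumarate is hydrated to malate by fumarate hydratase, encoded by Fh1 (ENSMUSG00000026526, chromosome 1, 175600374 to 175625635, minus strand), and malate is oxidised to oxaloacetate by the mitochondrial malate dehydrogenase encoded by Mdh2 (ENSMUSG00000019179, chromosome 5, 135778480 to 135790398, plus strand). The normalized counts of Fh1 were 12219, 12169 and 11852 in the vehicle mice and 12792, 11992 and 12670 in the Tributyrin mice. Tributyrin mouse 1 was the highest, and Tributyrin mouse 2 fell inside the vehicle range. The Fh1 means were 12080 ± 199 and 12485 ± 431 (SD, n = 3 each; exact permutation p = 0.3), and the log2 fold change was 0.05 with an interval of -0.09 to 0.19. Mdh2 had 33005, 32358 and 31994 normalized counts with vehicle and 34705, 31401 and 35353 with Tributyrin. Tributyrin mouse 2 was the lowest of the 6 and the other 2 Tributyrin mice were the highest. The Mdh2 means were 32452 ± 512 and 33820 ± 2120 (SD, n = 3 each; exact permutation p = 0.4), with a log2 fold change of 0.06 and an interval of -0.10 to 0.22. With 3 mice against 3, the smallest p that the exact permutation test can give is 0.1.

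**Figure D1:**
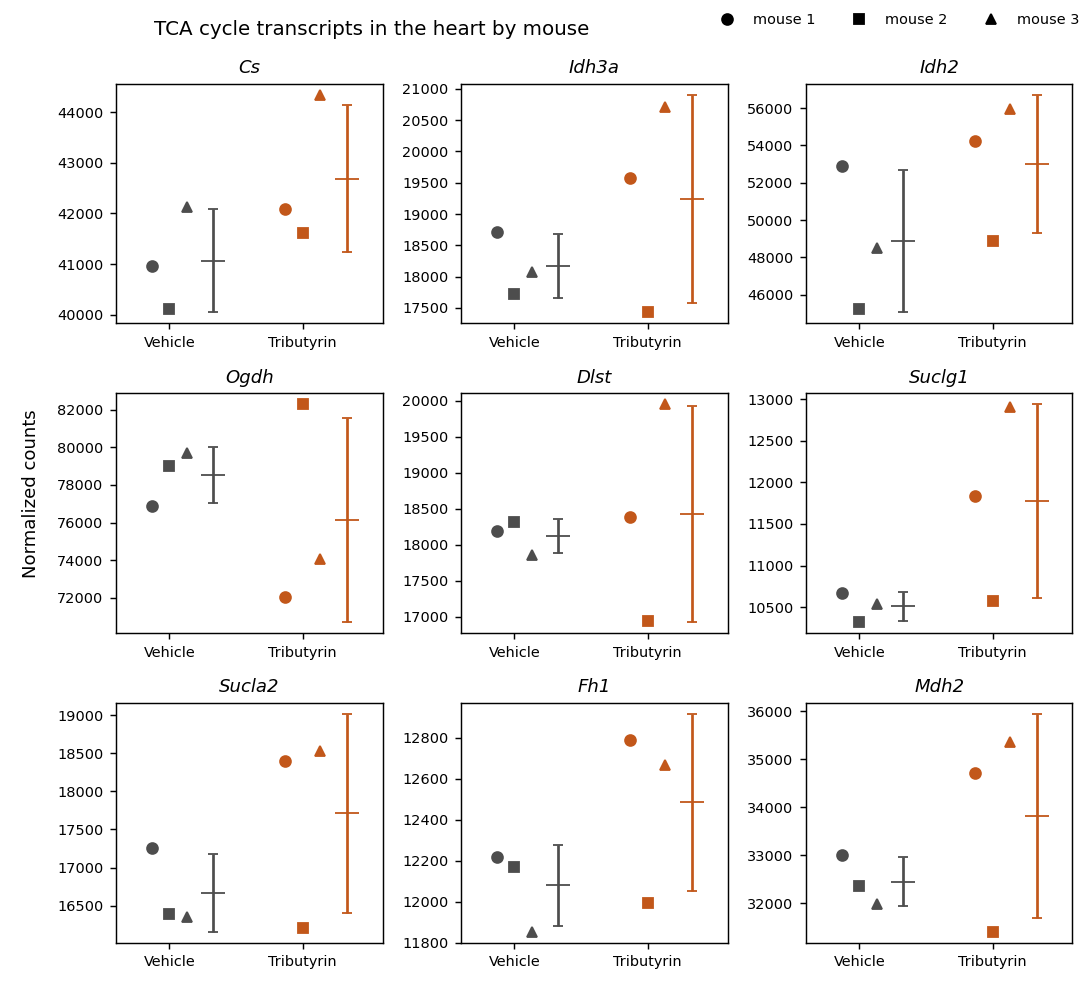
Normalized counts (vertical axes, which do not start at 0) of the 9 members in each vehicle (grey) and Tributyrin (orange) mouse, with the mean and SD of each group of 3 mice beside the points. Tributyrin mouse 2 (square) lies at or below the highest vehicle mouse in 8 of 9 panels, and the groups overlap in all 9.

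In normalized counts, the same arrangement of mice recurred across the members. It was not counted on other scales or over all genes. As a summed share of all counts, the members were lowest in Tributyrin mouse 3, at 1.055%. Tributyrin mouse 2 was at or below the highest vehicle mouse for 8 of 9 members, and it was the lowest of the 6 mice for 4 of them, Idh3a, Dlst, Sucla2 and Mdh2. Tributyrin mice 1 and 3 were both above every vehicle mouse for 7 of 9 members, all but Cs and Ogdh. Tributyrin mouse 3 was the highest of the 6 for 7 of 9, all but Ogdh and Fh1. Without Tributyrin mouse 2 the median log2 fold change was 0.11 and 4 of 9 members had an unadjusted p under 0.05 (edgeR's quasi-likelihood test), beside 9.56% of all genes tested in that fit, and the lowest adjusted p of a member was 0.389. Without Tributyrin mouse 3 the median was 0.03 and 7 of 9 members were higher. Leaving out these mice in turn moved the log2 fold change of Suclg1 from 0.23 (without Tributyrin mouse 2) to 0.10 (without Tributyrin mouse 3), that of Idh3a from 0.15 to 0.03, that of Sucla2 from 0.15 to 0.06 and that of Mdh2 from 0.11 to 0.03. Idh2 ranged from 0.06 (without vehicle mouse 2) to 0.18 (without vehicle mouse 1), and Ogdh from -0.10 (without Tributyrin mouse 2) to 0.00 (without Tributyrin mouse 1). The SD of normalized counts was larger with Tributyrin for 8 of 9 members, beside 60.9% of all genes tested. For the sum of the 9 members, the group with the larger SD depended on the scale. The SD of the sum was 4594 with vehicle and 8676 with Tributyrin in normalized counts, and 149.5 and 26.3 in CPM. The SD of each single member was not compared in CPM. In normalized counts, the median coefficient of variation over the members was 1.89% among vehicle mice and 7.12% among Tributyrin mice. The 243 genes with mean counts at or above the lowest member had medians of 3.64% and 7.61%.

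Profiles over the 6 mice were compared as log2 CPM, centred on each gene's own mean, by the root mean square distance between them. Mdh2 was nearest to the mean of the other 8 members, at 0.020, and the distance ranged from 0.034 to 0.070 for 7 further members. Ogdh stood at 0.131. The centred log2 CPM of Ogdh were -0.10, 0.10 and -0.06 in Tributyrin mice 1, 2 and 3, where those of Mdh2 were 0.07, -0.07 and 0.09. Among pairs, Sucla2 and Mdh2 were closest at 0.0224, and Ogdh and Suclg1 were farthest apart at 0.171. Outside the cycle, the 5 genes nearest to the mean profile of the 9 members were Bfar at 0.00905, Mettl14 (a subunit of the methyltransferase that makes N6-methyladenosine in RNA) at 0.0112, Slc25a3 (the mitochondrial phosphate carrier) at 0.0136, Tmem70 (an assembly factor of ATP synthase) at 0.0141 and Ppp3r1 (the regulatory subunit of calcineurin) at 0.0155. They were taken from 5704 genes with at least 20 CPM on average, whose median distance was 0.10. A mean of several genes varies less than a single gene, and the points share the same 6 libraries, so these distances are given as a description.

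**Figure D2:**
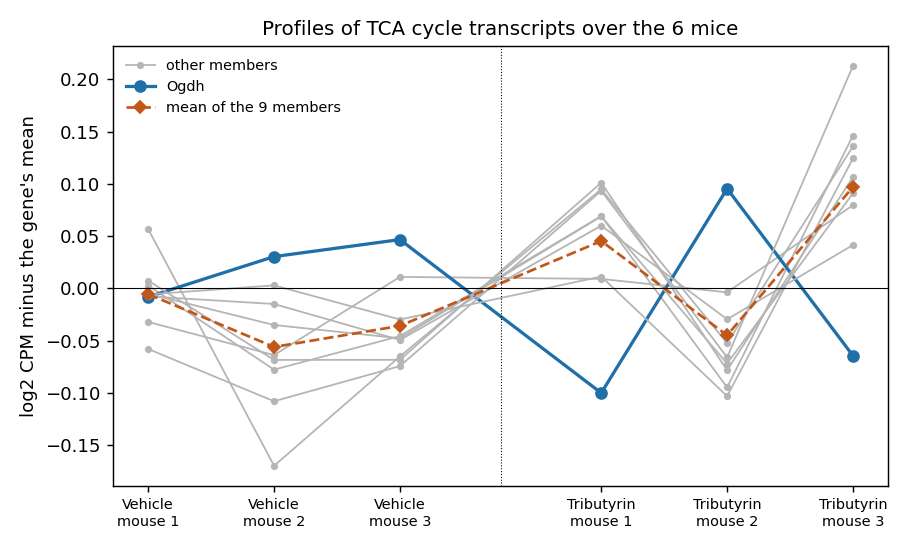
Log2 CPM of each member minus its own mean over the 6 mice (vertical axis) in each mouse (horizontal axis), with Ogdh in blue, the other 8 members in grey and the mean of the 9 as an orange dashed line. Ogdh is highest in Tributyrin mouse 2, at 0.10, where the mean of the members is -0.04, and lies below its own mean in Tributyrin mice 1 and 3.

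The share of members with a log2 fold change above 0, 8 of 9, stood beside 49.6% of all 14133 genes tested, for which the median log2 fold change was 0.00. Among the 243 genes counted at least as highly as the lowest member, a set that includes the 9 members, 192 (79.0%) were higher and the median was 0.07, close to the 0.06 of the members. The sum of the 9 members was 271621 to 280759 normalized counts with vehicle and 277297 to 294518 with Tributyrin. As a share of all counts, the members made up 1.068%, 1.07% and 1.095% in the vehicle mice and 1.06%, 1.057% and 1.055% in the Tributyrin mice. As a share of the counts outside mitochondrially encoded genes, they made up 1.40 to 1.45% and 1.43 to 1.48%. The direction of the small shift therefore depended on the scale, being upwards in normalized counts and downwards as a share of all counts. With the mitochondrially encoded genes removed before the fit, the median log2 fold change of the members was 0.07 and 8 of 9 were higher.

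**Figure D3:**
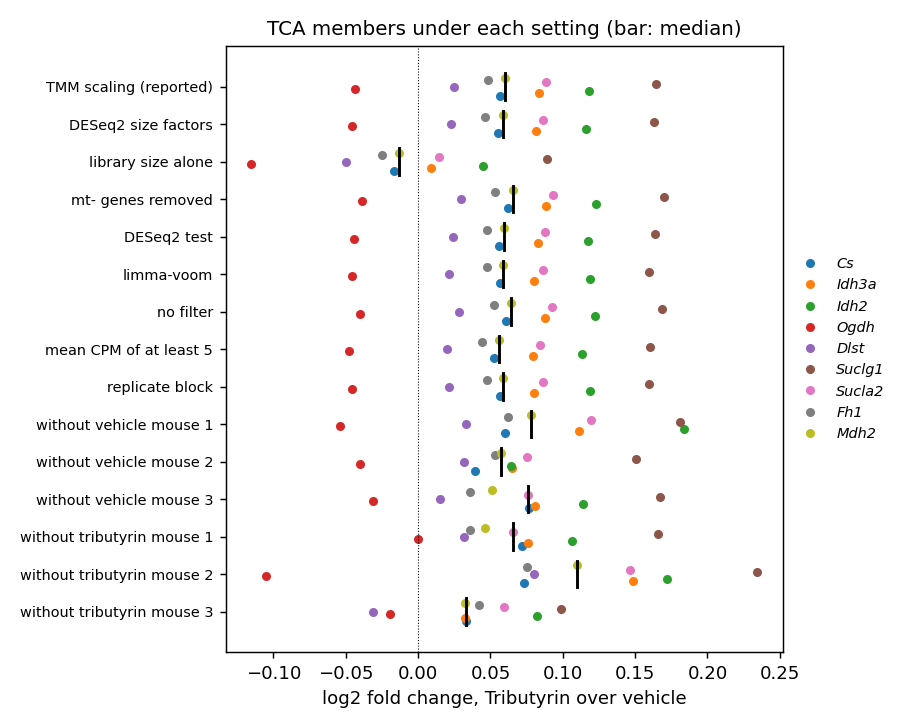
Log2 fold change of each member, Tributyrin over vehicle (horizontal axis), under each setting of the analysis (vertical axis), with 1 coloured point per gene and a black bar at the median. The median is 0.06 as reported, -0.01 with library size alone, 0.11 without Tributyrin mouse 2 and 0.03 without Tributyrin mouse 3.

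The rest of the cycle gave a similar account. Of 13 further genes, 12 had a higher fitted mean and 1, Sdhaf3, a lower one with Tributyrin, and the median log2 fold change was 0.08. The 12 of 13 stand beside 49.6% of all genes tested and 79.0% of the 243 highly counted genes. Other scalings were not counted for these 13. At an FDR of 10%, 0 of 13 passed, beside 0% of all genes tested, and at an unadjusted p under 0.05, 0 of 13, beside 4.25% (edgeR's quasi-likelihood test). The 4 subunits of succinate dehydrogenase, the enzyme shared by the cycle and the respiratory chain, had log2 fold changes of 0.03 (Sdha), 0.07 (Sdhb), 0.12 (Sdhc) and 0.10 (Sdhd). The non-catalytic subunits of the NAD-dependent isocitrate dehydrogenase, Idh3b and Idh3g, had log2 fold changes of 0.08 and 0.11. Suclg2, the GDP-forming beta subunit, was the single gene of the 13 whose groups did not overlap, with 3885 ± 76.9 and 4097 ± 65.9 normalized counts (SD, n = 3 each; exact permutation p = 0.1), and 1 of 13 stands beside 8.92% of all genes tested. The largest log2 fold change, 0.31 with an interval of -0.04 to 0.67, belonged to Sdhaf1, an assembly factor of succinate dehydrogenase with 161 ± 20.1 and 201 ± 35.5 normalized counts. Stretches of 50 bases, the read length, were shared with other annotated genes over 21.8% of the longest Suclg2 transcript and 69.0% of that of Sdhaf1, in part with genes on the opposite strand, so their counts may have been affected by how such reads were assigned. In the longest transcript of each member, 8 had no shared stretch and Suclg1 had 0.442%. Other transcripts of the members were not scanned in this way, and the longest Csl transcript did share such stretches with an annotated Cs transcript.

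Enzymes that stand beside the cycle were counted as a further list, made of cytosolic or tissue-restricted counterparts and of enzymes that feed carbon in or draw it off. Of 20 genes, 19 were tested (all but Csl, a homologue of Cs), with 12 higher, 7 lower and a median log2 fold change of 0.05. The 12 of 19 stand beside 49.6% of all genes tested that were higher. At an FDR of 10% 0 of 19 passed, and 1 of 19 had an unadjusted p under 0.05 (edgeR's quasi-likelihood test), beside 4.25% of all genes tested. This was Ogdhl, a relative of Ogdh best known from brain, with 5877 ± 445 and 6588 ± 108 normalized counts (SD, n = 3 each), a log2 fold change of 0.17 and an adjusted p of 0.999. The Ogdhl groups did not overlap, and neither did those of Got2, the mitochondrial aspartate aminotransferase, which had 11737 ± 188 and 12613 ± 510 normalized counts. Glud1, glutamate dehydrogenase, did not overlap in the other direction, with 4132 ± 103 and 3953 ± 58.8. These 2 higher and 1 lower of 19 stand beside 4.27% and 4.65% of all genes tested. Across 47.2% of its longest transcript Got2 shared stretches of 50 bases with other annotated genes, among them a pseudogene. Acly, the cytosolic enzyme that makes acetyl-CoA from citrate for lipid synthesis, had the lowest log2 fold change, -0.19 with an interval of -0.40 to 0.02. Oxct1, which commits ketone bodies to oxidation, was at 0.02, and Pcx, which makes oxaloacetate from pyruvate, was also at 0.02.

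**Figure D4:**
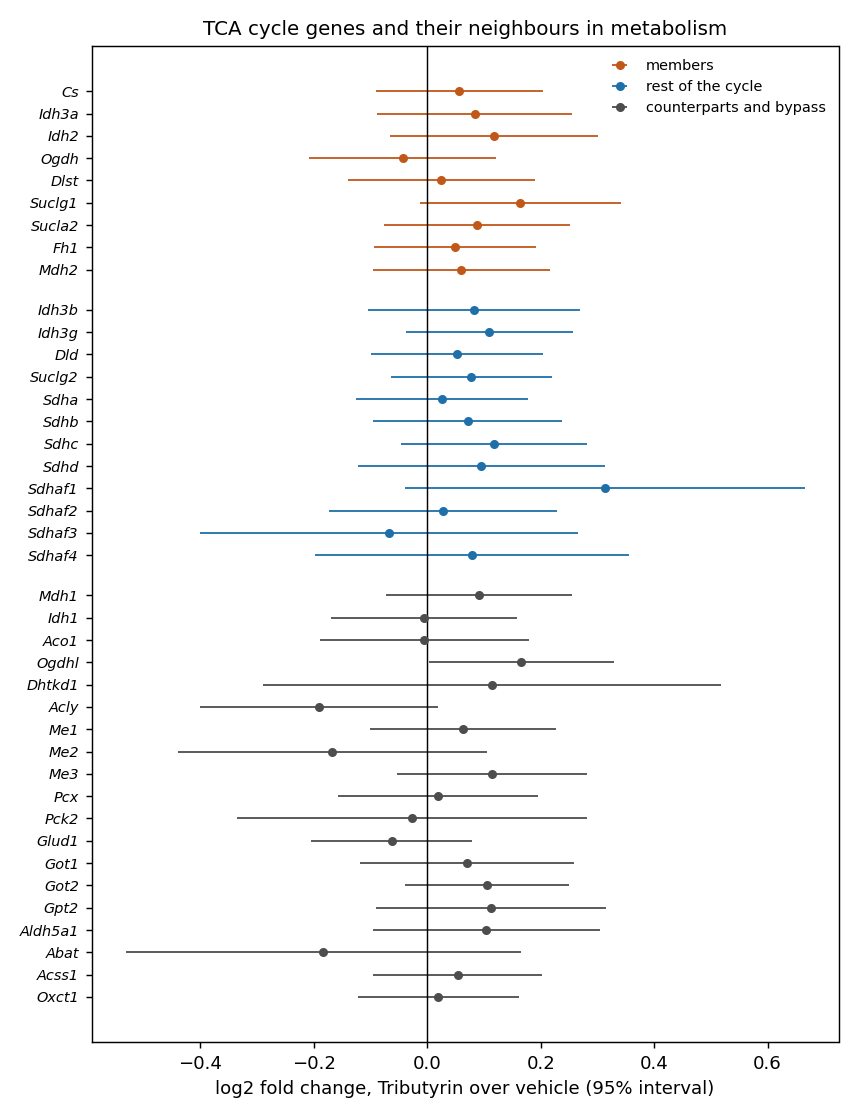
Log2 fold change, Tributyrin over vehicle, with its 95% interval (horizontal axis) for the 9 members (orange), 12 of the 13 further genes of the cycle (blue) and the 19 tested counterparts and bypass enzymes (grey). The interval of each member includes 0, and that of Ogdhl, from 0.00 to 0.33, lies just above it.

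Ratios of genes that work together were formed within each heart, which cancels the scaling of the library. Of 12 ratios, 0 differed between the groups after Benjamini-Hochberg adjustment over the 12, the lowest adjusted p being 0.84 (exact permutation tests). The ratio of mitochondrial to cytosolic malate dehydrogenase, Mdh2 to Mdh1, was 0.646, 0.657 and 0.644 in the vehicle mice and 0.635, 0.643 and 0.629 in the Tributyrin mice, on normalized counts not corrected for length. It was the only one of the 12 whose groups did not overlap, with a log2 difference of -0.03 and a standard error of 0.013 (exact permutation p = 0.1). The alpha to ATP-forming beta subunit ratio, Suclg1 to Sucla2, was 0.631 with vehicle and 0.664 with Tributyrin (exact permutation p = 0.2), and the vehicle range ended just inside the Tributyrin range. The ratio of the ATP-forming to the GDP-forming subunit, Sucla2 to Suclg2, was 4.29 and 4.32 (exact permutation p = 1.0). The ratio of Ogdh to Dlst was 4.22, 4.31 and 4.46 in the vehicle mice and 3.92, 4.86 and 3.71 in the Tributyrin mice. Both the highest and the lowest value of that ratio came from Tributyrin mice (exact permutation p = 0.6). The catalytic subunit Idh3a to its partner Idh3b stayed between 0.853 and 0.886 in all 6 hearts.

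Levels of different genes were compared per length, as TPM (transcript counts per length, scaled to a fixed total) computed from the counts and the union of the annotated exons. The order was Idh2 at 1713 TPM, Ogdh at 1241, Mdh2 at 811, Cs at 632, Sucla2 at 375, Idh3a at 321, Fh1 at 316, Suclg1 at 210 and Dlst at 167, as means over the 6 mice. Every neighbouring pair was separated over all 6 mice except Idh3a and Fh1, whose ranges of 307 to 333 and 291 to 334 TPM overlapped. Dividing by the longest annotated transcript instead changed 5 of the 9 places. On that scale Mdh2 (1535 TPM) and Ogdh (1400 TPM) exchanged places with overlapping ranges, and Dlst, at 422 TPM, came before Fh1 at 347 and Suclg1 at 299. The ranges of Sucla2 and Idh3a overlapped there, although Sucla2 was the higher of the pair in all 6 mice. Idh2 was first on both scales, and Cs, Sucla2 and Idh3a kept the fourth, the fifth and the sixth place. By group, TPM on the union of exons was lower with Tributyrin for 8 of 9 members and higher for Suclg1, at 207 ± 6.87 and 212 ± 7.02 (SD, n = 3 each), whereas in normalized counts 8 of 9 were higher. Among the lower ones, Ogdh had 1311 ± 81.1 TPM with vehicle and 1171 ± 154 with Tributyrin, and Dlst 173 ± 7.21 and 161 ± 2.24 (SD, n = 3 each). Whether the groups overlapped was not counted in TPM. On the longest transcript, 7 of 9 were lower. TPM adds to a fixed total in each library that includes the mitochondrially encoded transcripts.

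**Figure D5:**
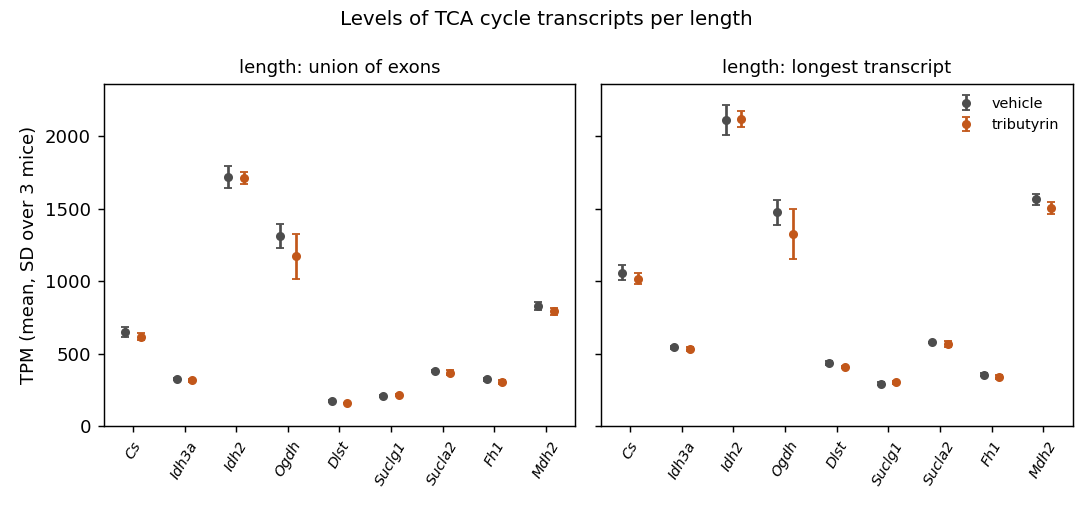
Level of each member per length (TPM, mean and SD over 3 mice, linear axis from 0) with vehicle (grey) and Tributyrin (orange), using the union of annotated exons on the left and the longest annotated transcript on the right. Idh2 is highest on both, at 1713 and 2114 TPM over the 6 mice. On the left, Ogdh is at 1311 ± 81.1 with vehicle and 1171 ± 154 with Tributyrin, and Dlst at 173 ± 7.21 and 161 ± 2.24.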

How the data were processed

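Heart ventricle RNA of 6 mice was sequenced as single-end 50-base reads from stranded mRNA libraries. Per the labels and the study's methods, the authors trimmed adapters with cutadapt 1.13, aligned reads to mm10 with STAR and counted them per gene with HTSeq 0.6.1p1. Whether reads were counted by strand is not given in the sources used here. Deposited values are raw counts per gene, 1 file per mouse, of which 0 rows name no gene and 54165 of 54232 matched GENCODE M21. Groups came from the treatment labels.

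Genes were kept by filterByExpr (minimum count 10, minimum total 15) and tested with edgeR 4.0.16 (TMM scaling, quasi-likelihood fit, group alone, R 4.3.3), with Benjamini-Hochberg adjustment over all 14133 genes. The standard error was taken from the fold change and the F statistic. Normalized counts use the size factors of DESeq2 1.42.0. Single values were compared by two-sided exact permutation tests (scipy 1.17.1). Log2 CPM for profiles used a prior count of 0.5. The fits across all genes were tested on simulated data whose planted changes were larger than the fold change of any member. That test does not show how often changes as small as those of the members would be detected. Named genes were all those of 3 lists (9 members, 13 further genes of the cycle, 20 counterparts and bypass enzymes) and the 5 genes with the nearest profile, and 1 of the 13 is counted but not reported here by name. The members and lists were chosen with earlier results of these data known, and the motifs after the promoters had been read. Coordinates are from GENCODE M21 (GRCm38) and promoters from RefSeq.

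No 2 libraries agreed within sampling noise (chi-square per degree of freedom 7.40 to 31.8). The titles number the mice of each group and the labels say nothing more of separate animals, so p-values measure the spread between these 6 samples, which may be partly technical. The 95% intervals of fold changes come from the edgeR fit and include the spread between mice. Alternatives were other scalings (size factors of DESeq2, library size alone, mitochondrially encoded genes removed), no filter or a mean CPM of at least 5, DESeq2, limma-voom (limma 3.58.1), a replicate block, a pseudocount of 1 for ratios, the longest transcript for lengths, and leaving out each mouse.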

Additional observations from a re-analysis of the deposited data

How the results depend on the processing

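The number of members past an FDR of 10% was 0 under every alternative run. At an unadjusted p under 0.05 (edgeR's quasi-likelihood test), it was 1 of 9 without a filter on low counts, beside 4.6% of all genes tested there. Without Tributyrin mouse 2 it was 4 of 9, beside 9.56%. With library size alone, 4 members were higher, the median log2 fold change was -0.0135 (all genes tested: -0.07), and the sign turned for Cs (-0.0168), Dlst (-0.0501), Fh1 (-0.0247) and Mdh2 (-0.0135). Over all genes, 0 passed an FDR of 10% with edgeR (600 at an unadjusted p under 0.05) and with limma-voom, 167 without a filter on low counts, 11 with DESeq2 and 2 with the replicate block, where the median of the members was 0.06 and 8 were higher. Same-numbered mice correlated at 0.199, 0.025 and 0.020 in their deviations from the group means, and 2 of 3 vehicle mice correlated best with their own number. With so few mice per group, these values cannot decide whether same-numbered mice were pairs. The labels state no pairing, and the main fit did not take the numbers as pairs. Leaving out each mouse gave 0 to 3 genes past an FDR of 10%, 7 to 8 members higher and a median of 0.0333 (without Tributyrin mouse 3) to 0.1095 (without Tributyrin mouse 2). Dlst then ranged from -0.0313 to 0.0800, and log2 differences of ratios that turned in sign ranged from -0.0145 to 0.0127 (Idh3a to Idh3b), -0.0713 to 0.0158 (Idh3a to Idh3g), -0.184 to 0.00965 (Ogdh to Dlst), -0.0299 to 0.0844 (Sucla2 to Suclg2) and -0.0345 to 0.0114 (Fh1 to Mdh2). The longest transcript moved 5 places in the order of levels. Apart from what the scaling, the filter or the samples left out are by construction, the cause was not tested. The lowest count of a member was 8480, and no setting varied the depth.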
